A study of Mus musculus with 8 samples.

Results

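The cytosolic ribosomal protein genes encode the proteins that, with ribosomal RNA, build the small and the large subunit of the ribosome. They were taken from the deposited gene count table as the protein-coding genes whose symbols are Rps or Rpl followed by a protein number, a or p0 to p2. The rule found 84 genes of the 41128 in the table, 33 of the small subunit (among them Rpsa) and 51 of the large subunit. The samples were haemogenic endothelium, endothelial cells that give rise to the first blood cells of the embryo, made by differentiating mouse embryonic stem cells of strain C57BL/6. RNA-seq was done on 4 groups of 2 libraries. A line of genotype Hdac1lox/lox and a line of genotype Hdac2lox/lox, each with lox sites at both copies of the named histone deacetylase gene, received either ethanol (EtOH) or 4-hydroxytamoxifen (4OHT). 4OHT is the active form of tamoxifen, commonly given to activate Cre fused to an oestrogen receptor domain, and ethanol is its solvent. The labels name no Cre transgene, dose or time, and the number of clones behind each line is not stated. Nothing in the labels says that the libraries of a group came from separate cultures, so p-values measure the spread between these libraries, which may be technical.

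The total counts per library lay between 10215792 and 19552380. Haemogenic endothelium is marked by Cdh5, Kdr, Tek, Pecam1, Kit, Itga2b and Runx1, and these 7 genes summed to 2445 to 6673 CPM (counts scaled to library size, here with the trimmed mean of M values, TMM). The marker genes of pluripotent cells and of visceral endoderm summed to at most 2.65 and 1.6 CPM. On their own rows Hdac2 lay between 140 and 165 CPM in the 8 libraries and Hdac1 between 4 and 7.45 CPM. Near-identical copies elsewhere in the genome were searched for only for the ribosomal protein genes. Reads of Hdac1 or Hdac2 assigned to such a copy would be missing from these values, so the levels of the 2 genes are not compared. Neither targeted gene was lower after 4OHT in its own line at an adjusted p under 0.05. Whole-gene counts include reads from parts outside the lox sites, so they do not check the deletion, and groups are named as labelled.

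A ribosome carries its proteins in fixed proportions, mostly a single copy of each. Most ribosomal protein mRNAs begin with a terminal oligopyrimidine tract, a C at the cap followed by a run of C and T. Through it the growth-signalling kinase mTOR and the binding protein LARP1 set how strongly the whole class is translated. Ribosomal protein genes have left many processed copies in mammalian genomes, made by reverse transcription of their spliced mRNAs. In blood formation the family is known for Diamond-Blackfan anaemia, a failure of red cell production caused by the loss of a single copy of any of a set of ribosomal protein genes.

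Runs of C and T were searched for in the RefSeq promoter sequences (GRCm38.p6), which were present for 63 of the 84 genes. The window searched ran from 50 bases before to 50 bases after the annotated start. In it, a C followed by at least 7 letters that are each C or T was found on the transcribed strand of 52 genes (82.5%), against 32% of all 27025 genes in that table. On the opposite strand the same run was found in 20.6% of the 63 genes and in 34.4% of all genes. The letters CTTTCC, which can lie inside such a run, were found in 30.2% of the 63 genes and in 5.43% of all. Their reverse complement GGAAAG was found in 3.17% and 5.12%. Of 9 other genes known for the tract that were in that table, 4 held the run and 0 held CTTTCC. A match describes the letters in the window and does not show where transcription starts, so a run away from the annotated start is not shown to be the tract. The longest run is shown in capitals for 6 genes described below. Counted from the annotated start, with bases before it negative, it began at -2 in Rps18, -4 in Rplp2, -15 in Rps15a, 23 in Rps7, 27 in Rpl4 and 34 in Rpl6. On their own rows Rps7 and Rps18 were among the most lowered of the called genes in the Hdac2lox/lox line, Rpl4 and Rpl6 among the least lowered. Rplp2 belongs to the ribosomal stalk, and Rps15a was higher in the EtOH libraries of the Hdac2lox/lox line.
Rps7, chr12:28635908-28635937, minus strand: tccccaCCTCTTTTCTTCCgccacccggat
Rps18, chr17:33955644-33955673, minus strand: cttccgCTCTCTCTTCCacaggaggcctac
Rps15a, chr7:118116139-118116168, minus strand: ggcccaCTCTCTTTCTgccatcttccctcg
Rplp2, chr7:141447641-141447670, plus strand: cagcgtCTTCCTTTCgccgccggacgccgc
Rpl4, chr9:64173407-64173436, plus strand: gcgtggCCTTCTCCTCTCCCCgtcatggtg
Rpl6, chr5:121204521-121204550, plus strand: cgctgccttagttCTCTTTCCCgtcttgca

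For many ribosomal proteins most counts stood in the rows of copies. Among the other genes of the table, 437 had a transcript at least 95% identical to that of a ribosomal protein gene over at least 50% of the copy and at least 100 bases. Of these copies 397 were annotated as pseudogenes and 38 as protein-coding. A copy was found for 76 of the 84 genes, and for 39 genes the copies together held more counts than the gene itself. The coding sequence of a gene and its copy can be the same over long stretches, as the first 60 coding bases of Rpl24 show beside its main copy. Rpl4 and its copy are shown as a pair with a single difference, in capitals, within the 60 bases (GENCODE M21 transcripts). Over their whole match they were 96.92% identical, so they differ at further positions. Rpl4 held 68.7% of the counts summed with this copy. On GRCm38 the copies shown are annotated as pseudogenes at chr9:116040593-116041064 (Gm9385) and chr1:143093346-143094606 (RP23-278M14.1).
Rpl24: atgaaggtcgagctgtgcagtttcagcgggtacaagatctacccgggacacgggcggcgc
Gm9385, a copy of Rpl24: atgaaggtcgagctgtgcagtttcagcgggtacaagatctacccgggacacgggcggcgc
Rpl4: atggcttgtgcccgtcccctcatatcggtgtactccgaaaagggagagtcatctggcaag
RP23-278M14.1, a copy of Rpl4: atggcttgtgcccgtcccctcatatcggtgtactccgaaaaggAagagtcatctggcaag
Rpl24, a large subunit protein, had 15 counts over all 8 libraries, while its 3 copies had 55812. Rps29, a small subunit protein, held 0.161% of the counts summed with its copies, and Gm14303 alone had 56510 counts. Rps27 held 0.17% of its sum, nearly all of the rest being on the protein-coding retrogene Rps27rt with 8197 counts. Rps16 had 211 counts beside 104126 on Rps16-ps2. No source used here says how reads that match several places were assigned, so from these counts the gene and its copy cannot be told apart as sources of RNA. Each result is therefore given for the gene's own row and, where it matters, for the gene and its copies summed.

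The levels of the genes' own rows were far apart. Of the 84 genes, 78 had a count in all 8 libraries. The canonical 77 genes, leaving out 7 tissue-restricted or minor paralogues, spanned 0.163 to 3849 CPM per kilobase of transcript (mean of 8 libraries), with a median of 77.4, and 49 of them lay within 10-fold of the median. With copies summed, the range was 3.69 to 4531 CPM per kilobase around a median of 247, and 70 lay within 10-fold. Lengths were those of a single annotated transcript per gene, for instance 1908 bases for Rps3 and 3706 for Rps20 against 851 for Rpl8. Rps3 had 201306 counts over the 8 libraries and Rpl8 had 166175. The range, the counts within 10-fold and the ranking thus depend on the transcript taken. By these lengths the highest per kilobase was Rplp1, a protein of the stalk that recruits elongation factors, at 3849 CPM per kilobase. Rpl32 followed at 1952, Rpl8 at 1652, Rps15 at 1638 and Rpl41 at 1607 CPM per kilobase. The 5 lowest were Rpl10l at 0.00959, Rpl39l at 0.0217, Rpl3l at 0.0804, Rpl24 at 0.163 and Rps27 at 0.351 CPM per kilobase. These 5 genes did not pass the filter on low counts, which left 79 of the 84 for the tests. Rpl10l and Rpl39l, known from the testis, and Rpl3l, known from muscle, each had at most 0.324 CPM in any library. Summed with their copies, Rpl24 and Rps27 stood at 685 and 204 CPM per kilobase.

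**Figure D1:**
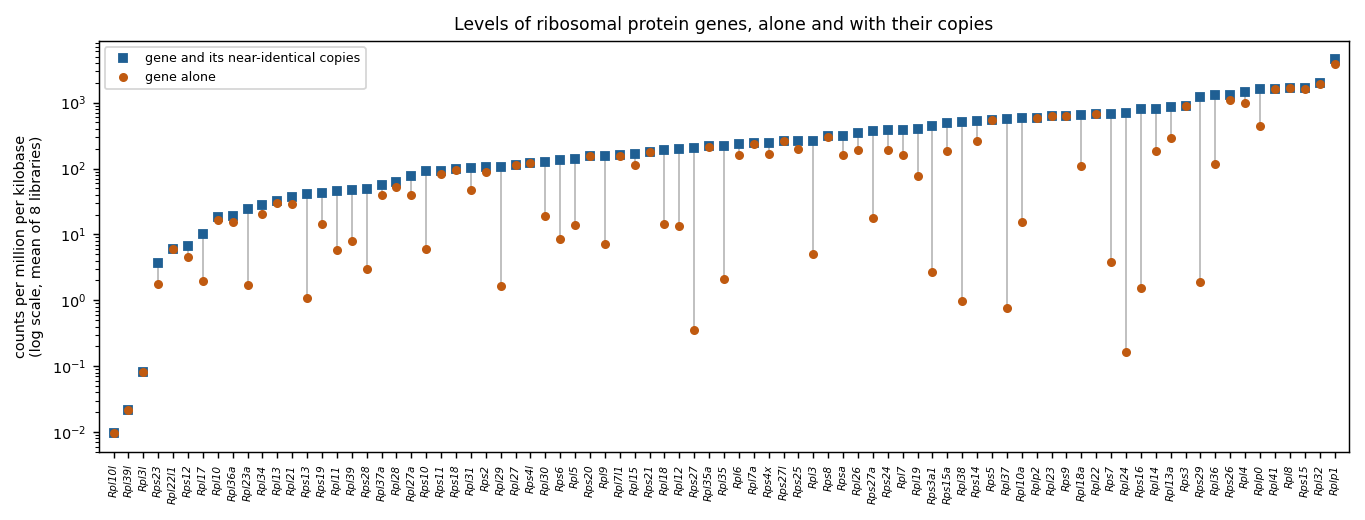
Level of 83 of the 84 ribosomal protein genes in CPM per kilobase of transcript (log scale, mean of 8 libraries), for the gene alone (circles) and summed with its near-identical copies (squares), in order of the sum. The lines between the symbols show how much of the sum lay on copies, from nothing for Rps4l to all but 0.0269% for Rpl24.

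In the Hdac2lox/lox line the ribosomal protein genes were lower after 4OHT than after EtOH as a class. Together they took 2.96% and 2.56% of all counts in the EtOH libraries and 1.17% and 1.01% in the 4OHT libraries, 2.76% ± 0.288 against 1.09% ± 0.113 (SD, n = 2). Both 4OHT libraries lay below both EtOH libraries, and the ratio of the mean shares was 0.395. In TMM-scaled CPM the sums were 29550 and 24935 after EtOH and 12473 and 10920 after 4OHT, a ratio of 0.429. The ratio was 0.426 for the small subunit, 0.431 for the large subunit and 0.358 for the 3 stalk genes. In these bulk samples fewer cells rich in ribosomal protein mRNA and less of it per cell cannot be told apart.

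Gene by gene, edgeR's quasi-likelihood test called 55 of the 79 tested genes lower at a Benjamini-Hochberg adjusted p under 0.05, and none higher. Over all 14179 genes tested, 17.2% were called lower and 18.9% higher. Among the genes at 10 CPM or more, 21% were called lower. The median log2 fold change was -1.12 for the ribosomal protein genes and -0.02 over all genes. The values ran from -1.95 to 0.24, with an SD of 0.42 against 1.12 over all genes, and 78 of 79 were below 0. Both 4OHT libraries were below both EtOH libraries for 73 of the 79, against 39.7% of all genes. The small subunit had 23 of 32 tested genes called lower (median -1.15) and the large subunit 32 of 47 (median -1.05). Leaving out 1 library of this line, with the remaining library of its group assumed to vary like the other groups, left few calls. Without 4OHT replicate 1 only Rps15a and Rpl15 were called (edgeR adjusted p = 0.046 and 0.044), where 5.6% of all genes were called in either direction. Without 4OHT replicate 2, EtOH replicate 1 or EtOH replicate 2 none was called, where 0.616%, 0.801% and 0% of all genes were, so calls were lost over the whole table. In these fits 42 to 58 of the 79 had an unadjusted p under 0.05, against 31.1% to 35.6% of all genes, 76 to 78 were below 0, and the median was -1.20 to -1.04.

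**Figure D2:**
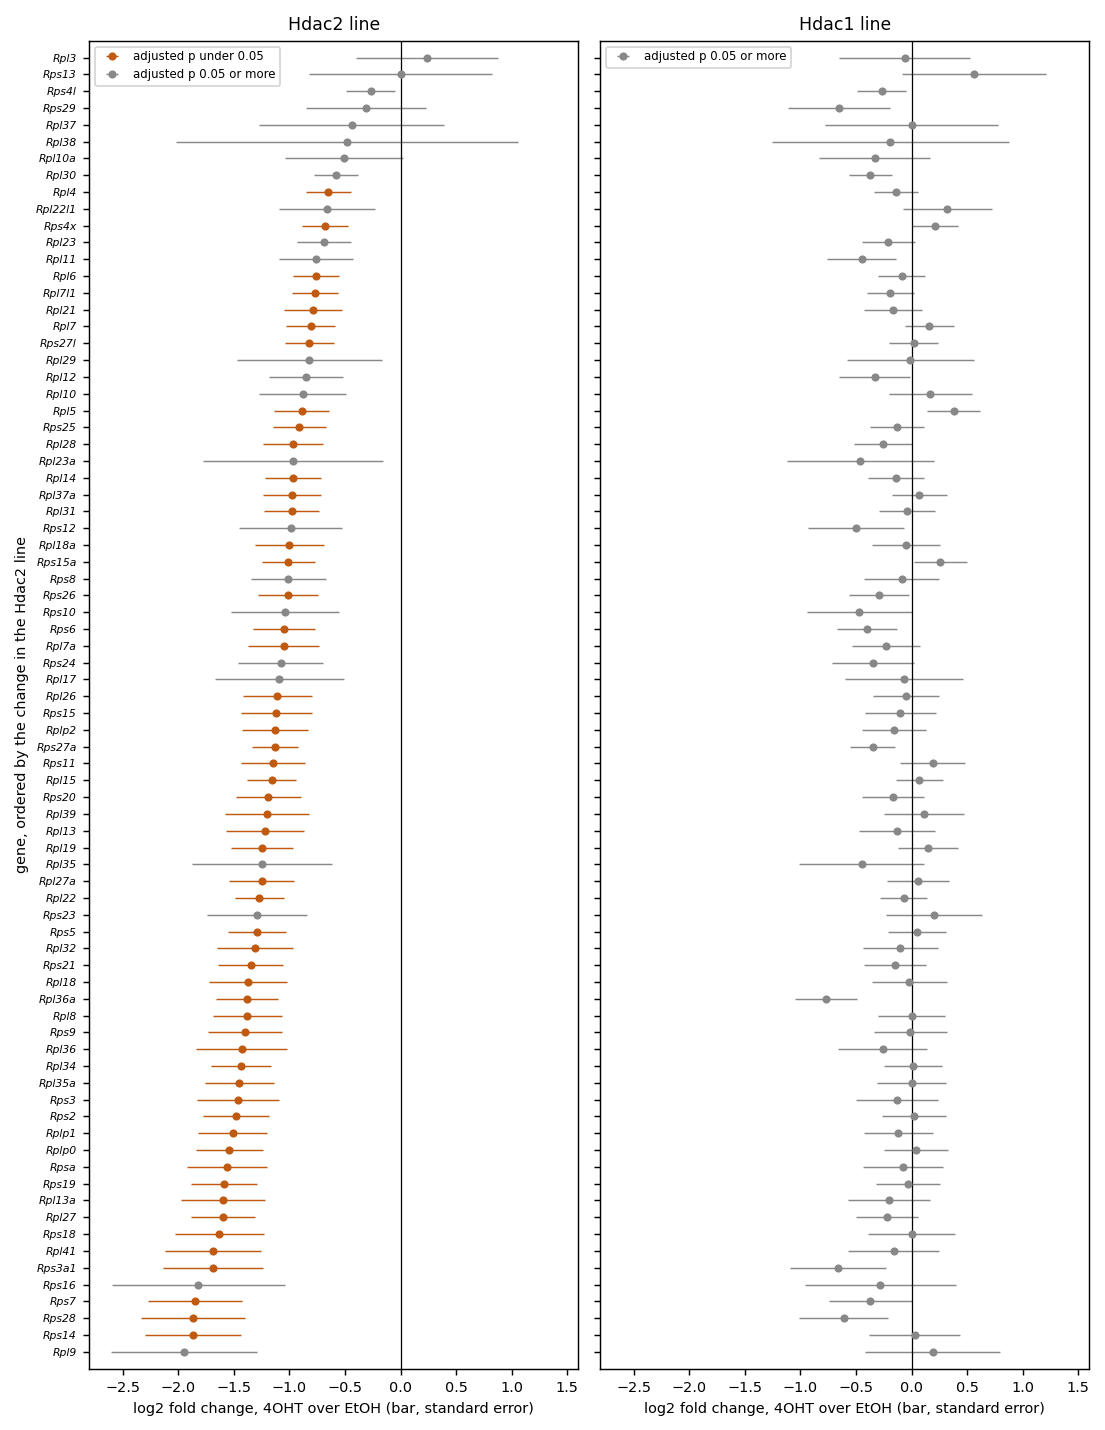
Log2 fold change of 4OHT over EtOH with its standard error for 78 of the 79 tested ribosomal protein genes, in the Hdac2lox/lox line (left) and the Hdac1lox/lox line (right), in the order of the left panel. On the left 77 of the 78 plotted genes lie below 0 and 54 are called, while on the right the values scatter around a median of -0.10 with none called.

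Among the small subunit genes the most lowered was Rps14, whose protein lies at the platform of the small subunit and whose loss underlies the anaemia of a human bone marrow disorder. It stood at 350 and 255 CPM after EtOH and at 94.6 and 70.9 CPM after 4OHT. The groups did not overlap, and the log2 fold change was -1.87 (SE 0.43, edgeR adjusted p = 0.018). Rps7, which like several free ribosomal proteins can bind MDM2 and so stabilise p53, had 4.02 and 4.11 CPM after EtOH and 1.09 and 1.16 after 4OHT. Its log2 fold change was -1.85 (SE 0.42, adjusted p = 0.018), but this row held only 0.583% of the counts of Rps7 and its copies. Rps28 changed by -1.87 (adjusted p = 0.021) at 1.24 ± 0.00706 CPM after EtOH (SD, n = 2). Its row also overlaps Kank3 on the opposite strand, a gene at 49.6 CPM, so its value is uncertain. Rps3a1 changed by -1.69 (adjusted p = 0.025) from a row with 0.581% of its family's counts. Rps7, Rps28 and Rps3a1 each held under 10% of their family's counts on their own row. Summed with copies, the 22 such genes ran from -1.56 to -0.40, so Rps7, Rps28 and Rps3a1 were less lowered there than on their own rows. Rps18, at 99.9 and 80.5 CPM after EtOH and 34 and 24.3 after 4OHT, changed by -1.63 (SE 0.40, adjusted p = 0.021). It overlaps Vps52 on the opposite strand, which had 115% of its mean CPM. The most lowered of the called large subunit genes was Rpl41, which encodes the smallest ribosomal protein. It had 1376 and 1019 CPM after EtOH and 411 and 333 after 4OHT, groups that did not overlap (-1.69, adjusted p = 0.022).

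The 6 called genes with the smallest decrease were 5 genes of the large subunit and Rps4x of the small subunit. Rpl4, which reaches into the exit tunnel of the large subunit, had 2056 and 1913 CPM after EtOH and 1299 and 1232 after 4OHT. That is a log2 fold change of -0.65 (SE 0.20, edgeR adjusted p = 0.041), smaller than the median of the class although the groups were well apart. Rps4x, the X-linked gene of a small subunit protein, had 250 and 210 CPM after EtOH and 163 and 125 after 4OHT (-0.68, adjusted p = 0.038). Rpl6, Rpl7l1, Rpl21 and Rpl7 changed by -0.76 to -0.81, with adjusted p from 0.026 to 0.048.

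The 3 stalk genes were all lower. Rplp0 (chr5:115559467-115563727, mm10), the stalk base on which the dimers of Rplp1 and Rplp2 assemble, had 1218 and 989 CPM after EtOH and 424 and 333 after 4OHT. Its log2 fold change was -1.54 (SE 0.30, edgeR adjusted p = 0.012). Rplp1 had 3970 and 3094 CPM after EtOH and 1353 and 1135 after 4OHT (-1.51, adjusted p = 0.014). Rplp2 had 436 and 348 CPM after EtOH and 194 and 164 after 4OHT (-1.13, adjusted p = 0.025). Rpl5 and Rpl11, which join the small ribosomal RNA of the large subunit in a particle that can inhibit MDM2, were read from rows with 10.1% and 13.1% of their families' counts. Rpl5 had 37.2 and 25.7 CPM after EtOH and 19.7 and 14.3 after 4OHT (-0.89, adjusted p = 0.03). Its row overlaps Fam69a on the opposite strand, which had 58.3% of its mean CPM, so its value is uncertain. Rpl11 had 6.22 and 5.16 CPM after EtOH and 3.96 and 2.75 after 4OHT (-0.76, adjusted p = 0.099). Summed with copies, Rpl11 changed by -1.29 (adjusted p = 0.014) and Rpl5 by -0.82 (adjusted p = 0.027).

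**Figure D3:**
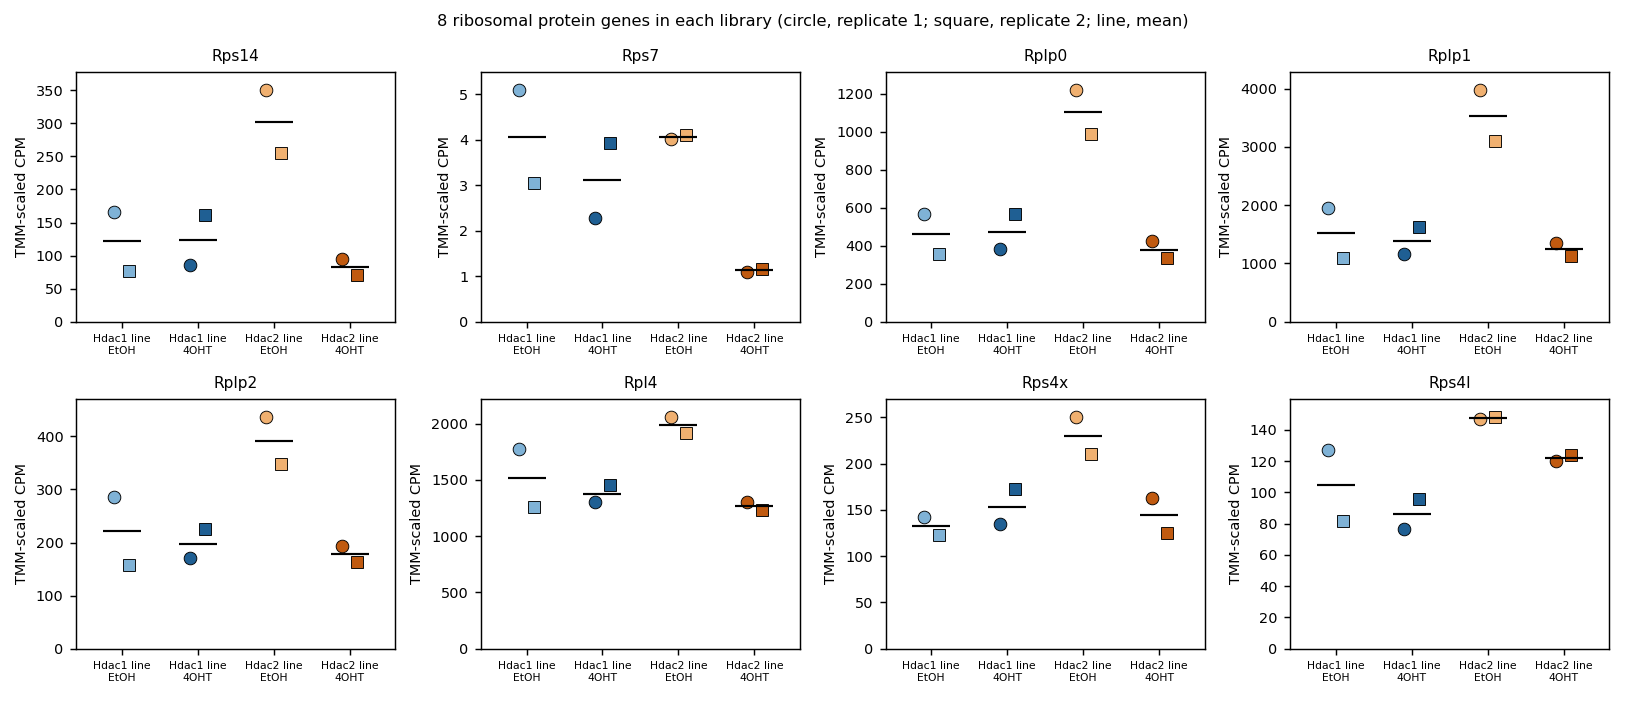
TMM-scaled CPM of 8 ribosomal protein genes in each of the 8 libraries (circle, replicate 1; square, replicate 2; line, group mean; each axis starts at 0). Rps14, Rps7, Rplp0, Rplp1, Rplp2, Rpl4, Rps4x and Rps4l are lower in both 4OHT libraries of the Hdac2lox/lox line than in both EtOH libraries. For Rps4l the change is only -0.27 on the log2 scale.

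Of the 24 tested genes that were not called, 13 held under 10% of their family's counts on their own row. Rpl3, which lies at the peptidyl transferase centre, was the only gene with a positive value. It had 4.86 and 2.96 CPM after EtOH and 3.8 and 5.6 after 4OHT (0.24, 95% interval -1.24 to 1.73). Its row held 2.07% of its family's counts, it overlaps Syngr1 on the opposite strand, and summed with copies it changed by -1.01 (edgeR adjusted p = 0.021). Rps13 had 0.583 and 0.669 CPM after EtOH and 0.621 and 0.622 after 4OHT, and summed with copies it changed by -1.07 (adjusted p = 0.022). Rpl9 had the lowest value of all, -1.95, with an adjusted p of 0.052, and summed with copies -1.50 (adjusted p = 0.021). Rps4l (chr6:148354656-148355598, mm10) has no near-identical copy. It had 147 and 148 CPM after EtOH and 120 and 124 after 4OHT, a log2 fold change of -0.27 (95% interval -0.79 to 0.25, adjusted p = 0.35). Rpl23, with 780 and 725 CPM after EtOH and 453 and 480 after 4OHT, missed the threshold at -0.69 (adjusted p = 0.054).

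With copies summed into their gene, 71 of 81 tested genes were called lower and none higher, where 17.3% of all 14013 genes in that fit were called lower. All 81 values were below 0, from -1.86 for Rps14 to -0.28 for Rps4l, and the median was -1.13. Of the 55 genes called on their own row, 54 were also called with copies summed, the exception being Rpl39 (-0.93, adjusted p = 0.073). The 20 tested genes with under 10% of their family's counts gave 7 calls alone. The 22 such genes gave 20 calls with copies summed. Genes with at least 90% of their family's counts gave 14 calls of 18 either way. Tested as rows of their own, 168 copies had a median of -1.07, and 83 were called lower and none higher. The genes' own rows held 56.1% to 57.9% of the summed counts in every library. That holds for the total and not for each gene. The own row of Rpl3 held 2.8% and 3.08% of its sum in the EtOH and 4OHT groups of the Hdac1lox/lox line, and 0.785% and 1.79% in those of the Hdac2lox/lox line.

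**Figure D4:**
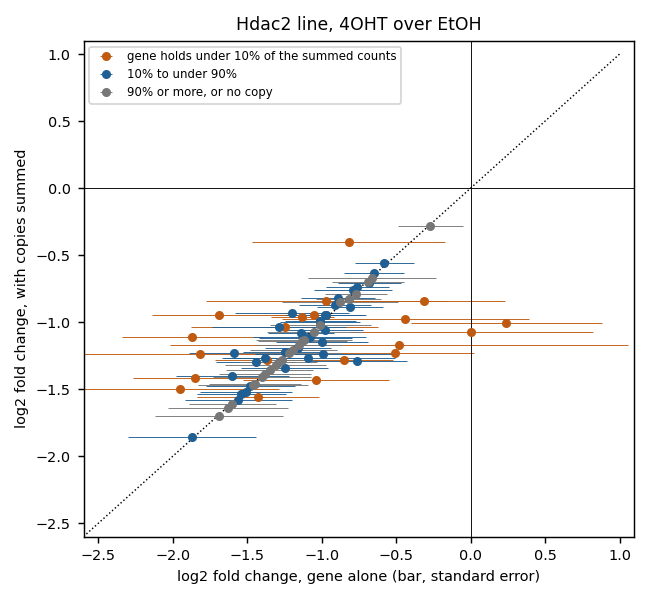
Log2 fold change of 4OHT over EtOH in the Hdac2lox/lox line for each gene alone (horizontal, with its standard error) and with its copies summed (vertical), coloured by the share of the summed counts on the gene's own row. Genes with under 10% scatter along the horizontal axis from -1.95 to 0.24 and come together at -1.56 to -0.40 on the vertical axis.

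The genes whose human counterparts are mutated in Diamond-Blackfan anaemia had medians near that of the whole class. Of 20 such genes, 14 of the 19 tested were called lower on their own row, with a median of -1.14, and 20 of 20 with copies summed, with a median of -1.11. Over all genes 17.2% were called lower, and 17.3% with copies summed. Rps19, the gene most often affected in that disease, had 18 and 14.3 CPM after EtOH and 5.66 and 5.07 after 4OHT. The groups were apart by far more than their spread (log2 fold change -1.59, SE 0.30, edgeR adjusted p = 0.012). Rpl35a had 182 and 153 CPM after EtOH and 66.3 and 56.2 after 4OHT (-1.45, adjusted p = 0.016). Rps29, also of this list, had at most 1.31 CPM on its own row (-0.31, adjusted p = 0.67) and summed with copies changed by -0.84 (adjusted p = 0.034).

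Several paralogue pairs were read at unlike levels. Rpl22, an RNA-binding protein needed in lymphocyte development, had 548 and 470 CPM after EtOH and 224 and 198 after 4OHT, and its log2 fold change of -1.27 (SE 0.22) had the smallest edgeR adjusted p of the class, 0.01. Its paralogue Rpl22l1 had 2.85 and 4.49 CPM after EtOH and 2.72 and 1.87 after 4OHT (-0.66, adjusted p = 0.25), and per kilobase it stood at 0.447% to 1.51% of Rpl22 with copies over the 8 libraries. Rps27l, a p53-responsive paralogue of Rps27, had 191 and 149 CPM after EtOH and 108 and 84.6 after 4OHT (-0.82, adjusted p = 0.028). Per kilobase of transcript Rps27l stood at 102% to 171% of Rps27 with its copies. Per kilobase Rpl7l1 stood at 37.3% to 50.1% of Rpl7 with copies, and both fell in the Hdac2lox/lox line, by 0.77 and 0.81 on the log2 scale. Per kilobase Rps4l stood at 39.6% to 69.4% of Rps4x with copies. This ratio was 41.1% and 50.2% after EtOH and 53.6% and 69.4% after 4OHT in the Hdac2lox/lox line, where Rps4x was called lower and Rps4l was not, a difference that was not tested. Rpl36a fell by 1.38 (adjusted p = 0.014). Rpl10 (-0.88) was not called, and summed with copies it was at -0.85 (edgeR adjusted p = 0.12). Rpl39 changed by -1.20 (adjusted p = 0.041). Both Rpl10 and Rpl39 had testis paralogues with hardly a count, as above.

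In the Hdac1lox/lox line no ribosomal protein gene was called between 4OHT and EtOH by edgeR, DESeq2 or limma-voom, and by edgeR no gene of the whole table was called (0%, with 947 at an unadjusted p under 0.05). DESeq2 called 32 genes of the whole table in this line. By edgeR, 1 of the 79 genes, Rpl36a, had an unadjusted p under 0.05 (log2 fold change -0.77, 95% interval -1.40 to -0.13, adjusted p = 0.73). The share of counts was 2.15% and 1.17% after EtOH and 1.19% and 1.79% after 4OHT, 1.66% ± 0.696 against 1.49% ± 0.418 (SD, n = 2). The 2 libraries of each group lay farther apart than the group means. In the EtOH group replicate 1 was above replicate 2 for 77 of 79 genes, with a median ratio of 1.61. In the 4OHT group replicate 1 was above replicate 2 for 2 of 79, with a median ratio of 0.695. The median over all genes was within 0.01 of 0 on the log2 scale in both groups. The median change of the class was -0.10 with all libraries. It was 0.34 without EtOH replicate 1, -0.45 without EtOH replicate 2, 0.16 without 4OHT replicate 1 and -0.43 without 4OHT replicate 2, so its sign depended on single libraries. Both 4OHT libraries lay below both EtOH libraries for 6 genes, against 15.4% of all genes, and above both for 1, against 15.8%. For Rplp0 the levels were 569 and 355 CPM after EtOH and 381 and 567 after 4OHT, and the 95% interval of the log2 fold change was -0.64 to 0.71. For Rps14 they were 166 and 76.9 CPM after EtOH and 86 and 162 after 4OHT, with an interval of -0.93 to 1.00.

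Whether the lines differed in the effect of 4OHT was tested as an interaction. By edgeR 0 of the 79 genes were called, against 0.0282% of all genes, while 41 had an unadjusted p under 0.05, against 28% of all genes. The median difference was -1.02 on the log2 scale, and 77 of 79 were below 0. Rpl22, Rplp0 and Rpl5 had among the smallest p-values. Their differences were -1.20 (95% interval -1.91 to -0.49, adjusted p = 0.087), -1.58 (-2.54 to -0.62, 0.087) and -1.27 (-2.08 to -0.46, 0.091). With copies summed the differences of Rpl22, Rplp0 and Rpl5 were -1.21, -1.47 and -0.75 (edgeR adjusted p = 0.086, 0.11 and 0.17). The value of Rpl5 on its own row thus did not hold for its family. DESeq2 called 22 genes, all lower in the Hdac2lox/lox line, where it called 12.6% of all genes, and limma-voom called 0. Without Hdac1lox/lox EtOH replicate 1, the library of that line richest in ribosomal protein counts, edgeR called 51 of 79, and 25.8% of all genes. Without any other single library it called 0.

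The EtOH libraries of the lines also differed, with the class higher in the Hdac2lox/lox line. The 84 genes summed to 29550 and 24935 CPM there and to 20117 and 11430 CPM in the Hdac1lox/lox line, a ratio of 1.73. EdgeR called 2 of the 79 genes higher, against 2.91% of all genes, and none lower, against 6.42%, while 27 had an unadjusted p under 0.05, against 33% of all genes. Both counts are near the shares over all genes. The called genes were Rplp0, at 569 and 355 CPM against 1218 and 989 (log2 fold change 1.26, SE 0.30, adjusted p = 0.042), and Rps15a. Rps15a had 96 and 86.6 CPM in the Hdac1lox/lox line and 203 and 170 in the Hdac2lox/lox line (1.03, SE 0.24, adjusted p = 0.041). Both Hdac2lox/lox libraries were above both Hdac1lox/lox libraries for 46 of 79 genes, against 29.9% of all. The median was 0.50. The genes with under 10% of their family's counts had a median of -0.02 on their own rows (20 tested) and of 0.64 with copies summed (22 tested). With copies summed, edgeR called 5 of 81 genes higher, among them Rplp1, Rps15a, Rps2 and Rps27, against 3.09% of all genes, and Rplp0 was at an adjusted p of 0.064. The count of calls was 42 without Hdac1lox/lox EtOH replicate 1, where 26.7% of all genes were called in either direction. It was 5 and 4 without replicate 1 and 2 of the Hdac1lox/lox 4OHT group, against 8.1% and 8.66% of all genes. It was 0 without Hdac1lox/lox EtOH replicate 2 or without any library of the Hdac2lox/lox line. These EtOH libraries are the controls of the 4OHT comparisons as well, so the comparisons are not independent.

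In the Hdac2lox/lox line the 4OHT libraries were near the level of the Hdac1lox/lox line's lower libraries. The sums of 12473 and 10920 CPM after 4OHT lay beside 11430 CPM in Hdac1lox/lox EtOH replicate 2 and 12316 CPM in Hdac1lox/lox 4OHT replicate 1.

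**Figure D5:**
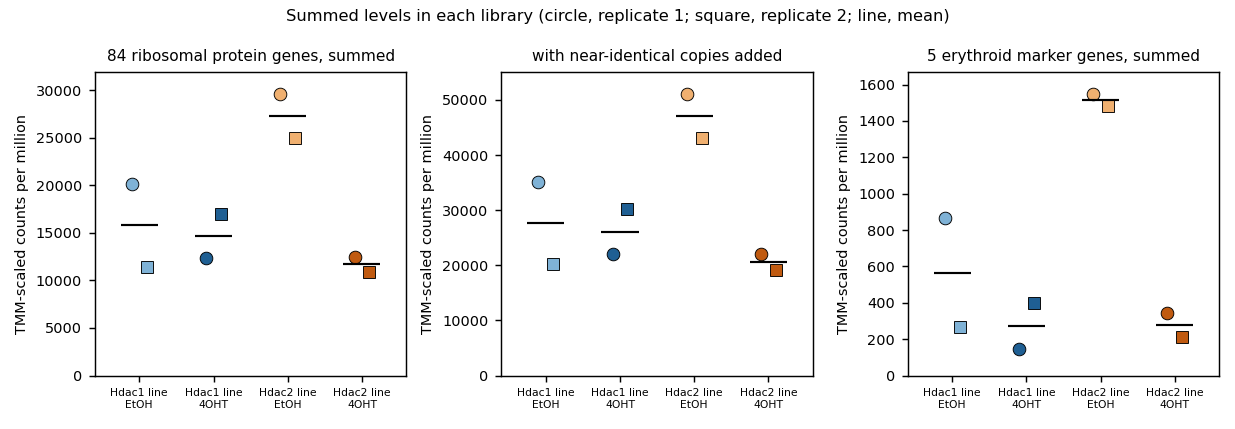
Summed TMM-scaled CPM in each library (circle, replicate 1; square, replicate 2; line, group mean; axes start at 0) for the 84 ribosomal protein genes, for the same genes with their near-identical copies, and for 5 erythroid marker genes. In all 3 panels the 2 Hdac2lox/lox EtOH libraries are the highest, and the 2 libraries of each Hdac1lox/lox group lie apart.

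Other genes of the translation apparatus were compared in the Hdac2lox/lox line. Some ribosomal proteins have symbols that the rule does not cover. Gnb2l1 (also called Rack1), a scaffold on the small subunit, had 3948 and 3634 CPM after EtOH and 1342 and 1161 after 4OHT (-1.60, edgeR adjusted p = 0.018). Rpl36al, a paralogue of Rpl36a, changed by -1.23 (adjusted p = 0.02). Fau, a fusion of a ubiquitin-like and a small subunit protein, did not pass the test (-1.25, adjusted p = 0.062). Of 15 translation factors and other genes known for the pyrimidine tract, 10 fell and none rose, with a median of -0.90. Over all genes 17.2% were called lower and 18.9% higher, and 21% of those at 10 CPM or more were called lower. Eef1a1, which delivers aminoacyl-tRNA to the ribosome, had 13202 and 12414 CPM after EtOH and 6250 and 5580 after 4OHT (-1.11, adjusted p = 0.025). Eef1b2, its exchange factor, changed by -1.23 and Npm1, a nucleolar chaperone, by -0.91, while Eef2, the translocation factor, was at -0.50 (adjusted p = 0.063).

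Of 10 regulators of the tract-bearing mRNAs or of ribosome production, the latter being Myc and Mycn, 2 rose and 1 fell in the Hdac2lox/lox line. These counts are near the 18.9% of all genes called higher and the 17.2% called lower. Larp1 had 157 and 176 CPM after EtOH and 308 and 383 after 4OHT (1.05, edgeR adjusted p = 0.018), and Mtor had 43.2 and 52.9 and then 78.5 and 83.5 CPM (0.75, adjusted p = 0.022). The Hdac1lox/lox EtOH libraries had 385 and 608 CPM of Larp1 and 66.5 and 84.2 of Mtor. Between the EtOH groups Larp1 was called lower in the Hdac2lox/lox line (-1.58, edgeR adjusted p = 0.021), while Mtor was not called (-0.65, adjusted p = 0.063). After 4OHT in the Hdac2lox/lox line Eif4ebp1, an inhibitor of cap-dependent translation that mTOR phosphorylates, fell by 0.91 (adjusted p = 0.017). Myc (-0.32, adjusted p = 0.34) and Mycn (-0.14, adjusted p = 0.60), transcription factors known to drive ribosome production, did not pass the test. Of 6 dedicated chaperones of single ribosomal proteins, 3 fell. They were Grwd1, a partner of Rpl3, by 1.09 (adjusted p = 0.018), Bccip, a partner of Rpl23, by 0.81 (adjusted p = 0.018), and Tsr2, a partner of Rps26, by 0.56 (adjusted p = 0.039). In the Hdac1lox/lox line none of these genes was called by edgeR, where 0% of all genes were called, so this does not set them apart.

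The sum of 5 markers of red cells moved with the ribosomal protein genes across the libraries. The embryonic globins Hbb-bh1, Hba-x and Hbb-y, the transcription factor gene Klf1 and the receptor gene Epor summed to 1546 and 1480 CPM in the Hdac2lox/lox EtOH libraries. They summed to 342 and 212 CPM in the 4OHT libraries, where 3 of the 5, Hbb-bh1, Klf1 and Epor, were called lower and none higher. In this comparison 17.2% of all genes were called lower and 18.9% higher. Most of the sum came from Hbb-bh1 and Hba-x. Hbb-y overlapped, with 45.7 and 33.7 CPM after EtOH and 37.4 and 16.8 after 4OHT (-0.55, edgeR adjusted p = 0.3). In the Hdac1lox/lox line Hbb-y had 14.8 and 9.15 CPM after EtOH and 5.03 and 7.12 after 4OHT. The 4 libraries with the largest ribosomal protein sums were also the 4 with the largest erythroid sums. Within the Hdac1lox/lox line the erythroid sum was 866 and 267 CPM after EtOH and 147 and 398 after 4OHT, beside ribosomal protein sums of 20117 and 11430, and of 12316 and 17011 CPM. None of the 5 markers was at 0 in any library. Smooth muscle markers went the other way, with 1994 and 1368 CPM after EtOH and 6120 and 4079 after 4OHT in the Hdac2lox/lox line. In that line the haemogenic endothelium markers summed to 2445 and 2648 CPM after EtOH and to 5067 and 6673 after 4OHT, where 3 of 7 rose and 1, Itga2b, fell. In the Hdac1lox/lox line they summed to 3496 and 4967 CPM after EtOH and to 5325 and 3987 after 4OHT. The 4 libraries with the largest ribosomal protein sums thus had the 4 smallest haemogenic endothelium sums, so the erythroid markers were not alone in following the class. Macrophage markers in the Hdac2lox/lox line summed to 6.74 and 1.91 CPM after EtOH and to 35.7 and 30.7 CPM after 4OHT. The part of these cell types in the change of the ribosomal protein genes was not tested.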

How the data were processed

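The authors deposited raw read counts per gene for 8 libraries, not normalized, which were used as deposited. Per the labels' protocols, 200 ng of total RNA went into a strand-specific kit with 15 amplification cycles. Per the submitters' processing notes, the build was mm10, and edgeR 3.8.5, R 3.1.0, SAMtools 0.1.19, Bowtie2 2.2.1 and bcl2fastq 2.17.1.14 are listed without their roles. For the counting program, its strand setting and its handling of multiply mapping reads, nothing is given in these sources. Of the 84 ribosomal protein genes, 17 overlap another tested gene, which had at least 10% of the CPM of the ribosomal protein gene in 9 cases. The values of those genes are uncertain.

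Here, filterByExpr left 14179 genes with 99.9% of counts. EdgeR 4.0.16 (R 4.3.3, TMM, robust quasi-likelihood) used a mean for each group over all 8 libraries, and p-values were Benjamini-Hochberg adjusted over all genes. Genes were called at an adjusted p under 0.05. Copies were found with BLAST 2.17.0 against GENCODE M21 transcripts. DESeq2 1.42.0, limma-voom 3.58.1, other scalings, no filter, the line fitted alone, a replicate block and leaving out each library were tried. Scripts were tested on simulated data. A floor of 3 counts is 0.153 to 0.294 CPM per library, which covers counting error only, since PCR duplicates cannot be told from molecules here.

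The genes and lists were chosen with earlier results of these data known. Named were the called genes with the 6 highest and 6 lowest log2 fold changes in each comparison, the 5 highest and 5 lowest levels per kilobase, the stalk genes, Rpl5 and Rpl11, 8 paralogue pairs, the genes that failed the filter, and up to 4 genes with the smallest adjusted p from each other list. Rps13, Rpl3, Rpl9, Rpl23, Rpl15, Fau, Eef2, Myc and Mycn, the genes in the sequence examples, Rps2 and Itga2b were named after their values were seen. A few items are not reported here.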

Additional observations from a re-analysis of the deposited data

How the results depend on the processing

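In the Hdac2lox/lox line, edgeR's 55 lower calls became 54 to 71 under DESeq2, limma-voom, no filter, the line fitted alone, other scalings and copies summed, all lower. In those fits 23.1% to 53.4% of all genes were called in either direction, against 36.1% with edgeR and TMM on all libraries. Leaving out each library gave 0 to 62, with 0% to 44.2% of all genes called. The block on replicate number gave 47, with 25.6% of all genes. In the Hdac1lox/lox line the count was 0 in every alternative. For the difference between lines, where the main count was 0, DESeq2 gave 22 (12.6% of all genes), no filter 17 (5.5%), and leaving out each library 0 to 51 (0% to 25.8%). For the EtOH libraries, where it was 2, DESeq2 gave 21, no filter 16, copies summed 5, the replicate block 0, and leaving out each library 0 to 42. Over all genes the shares called were 9.33% at first, then 19.8%, 9.57%, 9.83%, 1.3%, and 0.0069% to 26.7%. The cause of these differences was not tested. Whether same-numbered libraries are paired is not settled here. Their deviations from the group means correlated between -0.669 (the Hdac1lox/lox groups) and 0.242 (the Hdac2lox/lox groups). With 2 libraries per group such a correlation cannot decide it. Crossing the numbers within the Hdac1lox/lox line, chosen after seeing the data, gave 65 calls in the Hdac2lox/lox line, 40 for the difference and 32 for the EtOH libraries, where 47.1%, 17.9% and 25.2% of all genes were called. Upper-quartile scaling moved the median of all genes from -0.02 to -0.15 in the Hdac2lox/lox line and that of the class from -1.12 to -1.26. Of the single genes named as called, 178 results kept their call and 10 lost it under the alternatives other than leaving out a library. When a library was left out, 70 kept their call and 82 lost it. None changed direction. The ratio of summed shares in the Hdac2lox/lox line was 0.366 to 0.427 without each library and 0.404 with copies.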
